A study of Rattus norvegicus with 2 samples.

Results

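A set of 45 genes of the cell cycle were examined in rat muscle 24 hours after it had been pricked with a fine needle. They were taken by symbol from the array's probe annotation and divided into 7 genes of G1, 12 of S phase and 26 of mitosis. Of the 45, 42 had at least 1 probe set of their own among the 14217 genes so represented on the array, with 59 probe sets in all. Probe sets of Rrm2 and Hmgb2 were annotated to several genes and were left out, and Tpx2 was not analysed here. The tissue was the adductor, which lies on the inside of the thigh, from male Lewis rats, an inbred strain, of 275 g body weight. In the stimulated group the left hindlimb received 100 pricks with a steel needle of 0.14 mm diameter within a square of 10 mm by 10 mm, and in the control group the right hindlimb was left untreated. Each group was represented by 1 Affymetrix array of total RNA, and the labels do not say how many animals gave the tissue or how old they were.

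The cell cycle runs through an ordered set of gene programmes. D-type cyclins with Cdk4 receive growth signals in G1 and inactivate the retinoblastoma protein, E-type cyclins with Cdk2 start S phase, the MCM helicase unwinds DNA at replication origins, and cyclins A and B with Cdk1 drive mitosis. Adult muscle fibres have left the cycle for good, so cells that can cycle in muscle are satellite cells (the muscle stem cells), immune cells, stromal cells and endothelium. The comparison asked whether these programmes differed between pricked and untreated muscle.

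Most of these transcripts lay close to their control level. Mki67, the gene of the proliferation marker Ki-67, was 2.21-fold higher in the stimulated limb. It was the only 1 of 41 measured members at or beyond 2-fold, although for 3 of the 41 only a lower bound of the fold could be given. The 3 D-type cyclin genes were all lower, by 1.33-fold to 1.48-fold, and the 6 genes of the MCM helicase were all higher, by 1.11-fold to 1.65-fold. The mitotic genes as a group had a median log2 ratio of -0.05, close to the 0.02 of the median gene. With 1 array per group none of these differences has a replicate check and no test was possible. In such bulk tissue, fewer cells of a type and less RNA per cell cannot be told apart.

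Signals are MAS5 intensities, in which 1 value stands for each probe set, and they are compared only within a probe set. A floor was set at 19.8, the median signal of all non-control probe sets on both arrays. A gene counts as measured if 1 of the arrays or both were at or above the floor, and its brightest measured probe set stands for it. Lower signals were raised to the floor before the ratio was taken, so that a fold with 1 array below the floor is a lower bound, written "at least". Such a gene can only come out higher in the limb whose array reached the floor. Counts above and below 0 include such genes. Of the 42 members, 41 were measured and 38 reached the floor on both arrays. Cdk2, the kinase of the G1 to S transition, lay below it on both arrays with both of its probe sets, at signals of 7.4 to 15.6. In all, 8 members lay near background, with every probe set under 39.6 (2 times the floor) on both arrays: Cdk2, Ccne1, Ccne2, Tyms, Aurka, Bub1b, Cenpf and Tacc3. Among measured genes this held for 7 of 41 members (17.1%) and for 19.6% of the 9956 genes measured on the array.

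Error could be estimated only by comparing a gene's own probe sets. Across 2174 genes, the log2 ratio of a single probe set had an SD of 0.31, and of 0.36 in the 724 dimmest genes, whose mean signals reached 67.9. This SD leaves out variation between limbs and animals. Of the 38 members at or above the floor on both arrays, 30 (78.9%) had a log2 ratio smaller than 0.31 in size, against 63.5% of all such genes. The ratios of the members had an SD of 0.34 across genes, and those of all genes 0.43. Differences of 2-fold or more were seen in 1.43% of all measured genes in the upward direction and in 1.43% in the downward direction. The members had 1 of 41 (2.44%) higher and 0 lower, which is near that background. Of the 5345 genes with a geometric mean signal under 100, where 30 of the members lie, 1.8% were at least 2-fold higher. The median of all genes moved to 0.39 when the arrays were scaled to the hybridisation spike-ins, all 18 of which were lower on the stimulated array. Counts above and below 0 use the authors' scaling, in which the median gene lies at 0.02.

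**Figure D1:**
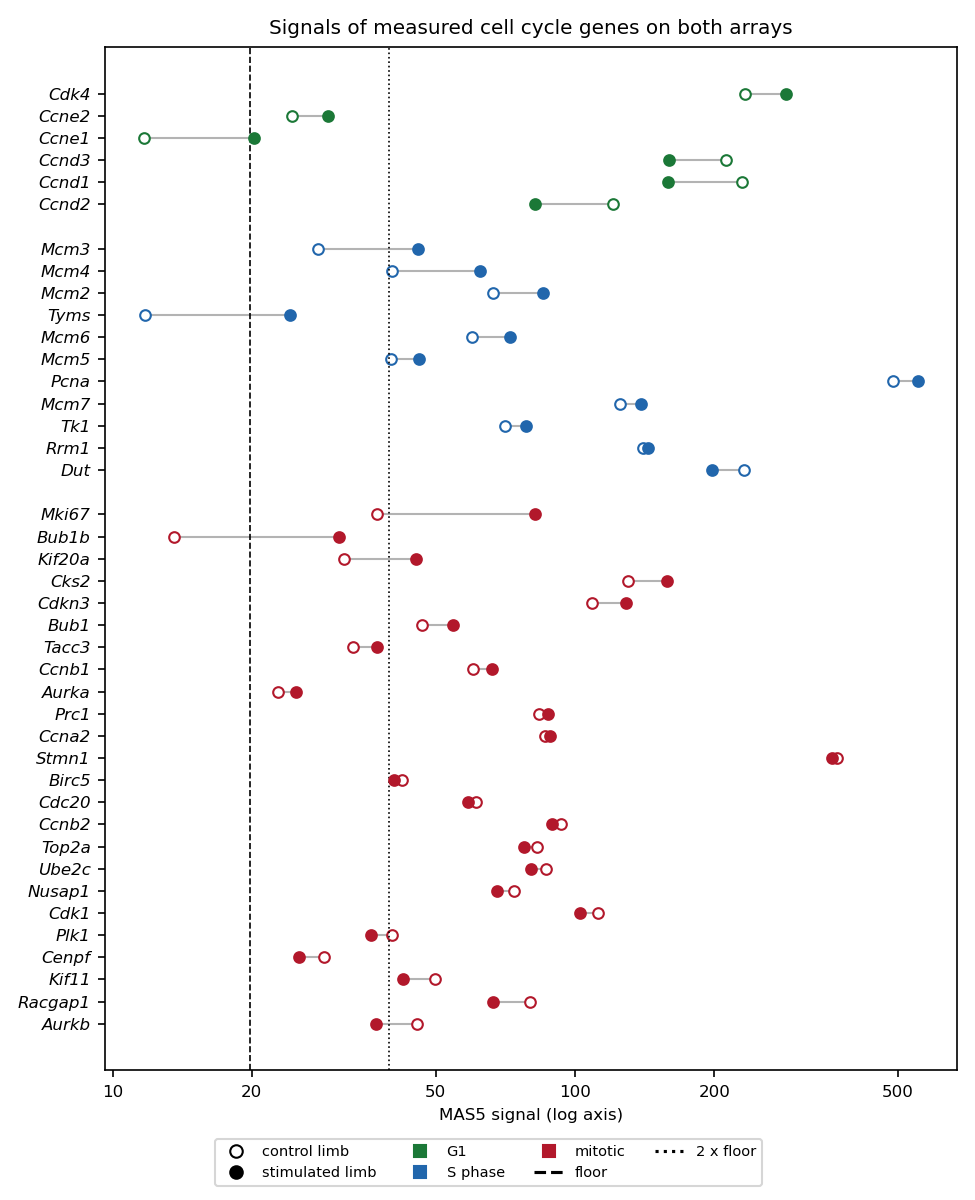
MAS5 signals (log axis) of the 41 measured members in the control limb (open circles) and the stimulated limb (filled circles), 1 array each, ordered within G1, S phase and mitosis by their ratio. Signals are to be compared within a row; most pairs lie close together, and Mki67, Ccnd1, Ccnd2, Mcm3 and Mcm4 are among those set apart with both arrays above the floor (dashed line).

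The D-type cyclins, which bind Cdk4 and carry growth signals into the cycle, were lower in the stimulated limb. Ccnd1 (cyclin D1) had a signal of 159.2 in the stimulated and 229.9 in the control limb, 1.44-fold lower. Its other probe sets read 83.9 against 125.5 and 59.6 against 89.0, and all 3 log2 ratios lay between -0.58 and -0.53. Ccnd1 was thus the member with the most measured probe sets and they differed little from each other. Ccnd2 (cyclin D2) had a signal of 81.7 against 121.0, 1.48-fold lower, the lowest ratio among the 41 members. Ccnd3 (cyclin D3, the D-type cyclin linked to muscle differentiation) had 159.3 against 212.5, 1.33-fold lower. The median log2 ratio of these 3 was -0.53, larger in size than the probe set SD, and the next lowest member, Aurkb, had -0.29. Their direction held when no reference was made to the median gene, although under spike-in scaling the log2 ratios shrank to -0.15, -0.18 and -0.03.

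The other G1 genes did not follow the D-type cyclins. Cdk4, their partner kinase, had a signal of 286.6 against 233.0, 1.23-fold higher. The E-type cyclin genes, whose products activate Cdk2 at the start of S phase, were near background. Ccne2 had 29.2 against 24.5, 1.19-fold higher, and Ccne1 had 20.2 against a control signal below the floor, at least 1.02-fold higher. The ratios of Cdk4 and Ccne2 lay within the probe set SD, and that of Ccne1 is only a lower bound, with a log2 ratio of 0.79 when the floor was set at the 25th percentile. Over the 6 measured G1 genes, 3 lay above and 3 below 0, and their median of -0.19 falls in the gap between both sets and describes neither. Ccne1 is among the 3 above, but it was measured through its stimulated signal alone and could only lie there.

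Markers of cells that could carry these cyclins went both ways. Of 11 measured endothelial markers 10 were lower, with a median log2 ratio of -0.63 and a summed signal of 920.6 in the stimulated and 1572 in the control limb. Of 12 muscle fibre genes 11 were lower, with a median of -0.42 and a summed signal of 96240 against 128400, and of 9 fibroblast and stromal markers 7 were lower, with a median of -0.26 and 16680 against 20000. Every marker of these 3 lists that had a probe set was measured. The probe sets that stand for Flt1 (endothelial) and Pdgfrb (stromal) reached the floor on the control array alone, so both could only lie below 0. As they stood after spike-in scaling, the endothelial and fibre medians were -0.24 and -0.04 and the stromal one 0.12, and with quantile normalization the fibre median was -0.04. Monocyte and macrophage markers were mostly higher, with a median of 0.68, and satellite cell and myoblast markers had a median of 0.01. Both lists are described below. The part of any of these cells in the cyclin ratios was not tested.

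Of the D-type cyclins, RefSeq's promoter table (assembly GRCr8) held Ccnd3 alone. Its 250 bases before the gene's start are shown for comparison with the S-phase and mitotic genes below, with matches to 3 motifs in capitals. The motifs were the CCAAT box, the cell cycle homology region (CHR, TTTGAA) and E2F sites (TTTCGCGC, TTTGGCGC or TTCCCGCC), each on both strands, and matches may overlap.
Ccnd3, chr9:20897876-20898125, minus strand: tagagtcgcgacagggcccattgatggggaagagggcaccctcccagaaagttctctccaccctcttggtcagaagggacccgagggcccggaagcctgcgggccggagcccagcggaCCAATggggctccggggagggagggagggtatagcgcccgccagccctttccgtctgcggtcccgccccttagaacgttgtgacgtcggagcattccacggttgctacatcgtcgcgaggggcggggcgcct
The window held 1 CCAAT box and none of the other motifs. Of the 4 G1 genes in the table, 2 had a CCAAT box and 0 an E2F or CHR match. Over all 27457 genes in the table, 36.1% had a CCAAT box, 17.2% a CHR and 2.46% an E2F match in the same window. In the 8349 genes that were also measured here the shares were 37.1%, 10.6% and 4.47%.

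S-phase genes lay mostly above their control level. Of 11 measured, 10 had a log2 ratio above 0, against 52.3% of all genes, and the median of the 11 was 0.20. Tyms is counted among these 10, but it was measured through its stimulated signal alone, so it could only lie above 0. None of the 11 reached 2-fold, but the fold of Tyms is a lower bound. With the floor at the 25th percentile its log2 ratio was 1.04. Of the 10 at or above the floor on both arrays, 7 lay within the probe set SD. The 3 outside it were all subunits of the MCM helicase, the ring of Mcm2 to Mcm7 that is loaded at origins and unwinds DNA ahead of the fork.

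Mcm3 had a signal of 45.8 in the stimulated and 27.7 in the control limb, 1.65-fold higher, rank 380 of the 9956 measured genes by ratio. Mcm4 had 62.5 against 40.3, 1.55-fold higher, and ranked 539. Mcm2 had 85.3 against 66.5, 1.28-fold higher. These 3 ratios exceed the SD of 0.31, although the control signals of Mcm3 and Mcm4 were under or just above 2 times the floor. Mcm6 had 72.4 against 60.0, Mcm5 45.9 against 40.0 and Mcm7 139.1 against 125.2, with log2 ratios of 0.27, 0.20 and 0.15. The last 3 are smaller than the spread of a probe set. The 6 subunits therefore pointed the same way, with a median log2 ratio of 0.32, each with a single probe set.

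Promoters of the MCM genes are shown for the subunit with the highest ratio and for 2 of the 3 subunits with ratios inside the probe set SD, Mcm5 and Mcm6, in the same notation as above.
Mcm3, chr9:30733747-30733996, minus strand: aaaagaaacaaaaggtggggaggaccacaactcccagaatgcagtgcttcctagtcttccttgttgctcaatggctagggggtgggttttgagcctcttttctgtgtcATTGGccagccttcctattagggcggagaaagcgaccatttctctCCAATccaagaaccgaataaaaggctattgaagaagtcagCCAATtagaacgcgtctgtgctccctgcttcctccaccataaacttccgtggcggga
Mcm5, chr19:13488563-13488812, plus strand: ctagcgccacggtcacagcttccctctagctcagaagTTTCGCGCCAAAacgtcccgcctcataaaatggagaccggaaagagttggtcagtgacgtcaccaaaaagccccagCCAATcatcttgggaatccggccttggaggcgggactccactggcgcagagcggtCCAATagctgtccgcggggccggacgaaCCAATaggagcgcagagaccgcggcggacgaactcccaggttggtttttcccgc
Mcm6, chr13:42404353-42404602, minus strand: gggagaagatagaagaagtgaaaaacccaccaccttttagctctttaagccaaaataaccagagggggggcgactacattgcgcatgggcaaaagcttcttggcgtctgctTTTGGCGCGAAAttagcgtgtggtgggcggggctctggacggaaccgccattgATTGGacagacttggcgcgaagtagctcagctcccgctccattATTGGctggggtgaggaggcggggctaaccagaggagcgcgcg
Of the 5 MCM genes in the table, 4 held an E2F match in this window and 4 a CCAAT box. Mcm3, with the highest ratio, held 3 CCAAT boxes and no E2F match, while Mcm5 and Mcm6 each held a pair of overlapping E2F matches. Of those not printed, Mcm7 held 1 E2F match. Mcm2, whose ratio lay outside the probe set SD, held 2 overlapping E2F matches, 2 CHR matches and no CCAAT box. Across the 10 S-phase genes in the table, 6 held an E2F match (60.0%), the other 2 being Rrm1 and Tyms. A match is a run of letters and was not tested as a binding site.

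Pcna, the sliding clamp of DNA polymerases, had a signal of 552.7 against 486.1, 1.14-fold higher. The enzymes that supply nucleotides differed little. Rrm1, the large subunit of ribonucleotide reductase, had 144.0 against 140.4, and Tk1 (thymidine kinase) 78.2 against 70.5, with a second measured probe set at 74.3 against 66.2. Tyms (thymidylate synthase) had 24.2 against a control signal of 11.8, at least 1.22-fold higher and near background. Dut, which removes dUTP, was the only S-phase member below 0, at 198.1 against 232.2, 1.17-fold lower. The ratios of Pcna, Rrm1, Tk1 and Dut lay within the probe set SD, and that of Tyms is only a lower bound.

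**Figure D2:**
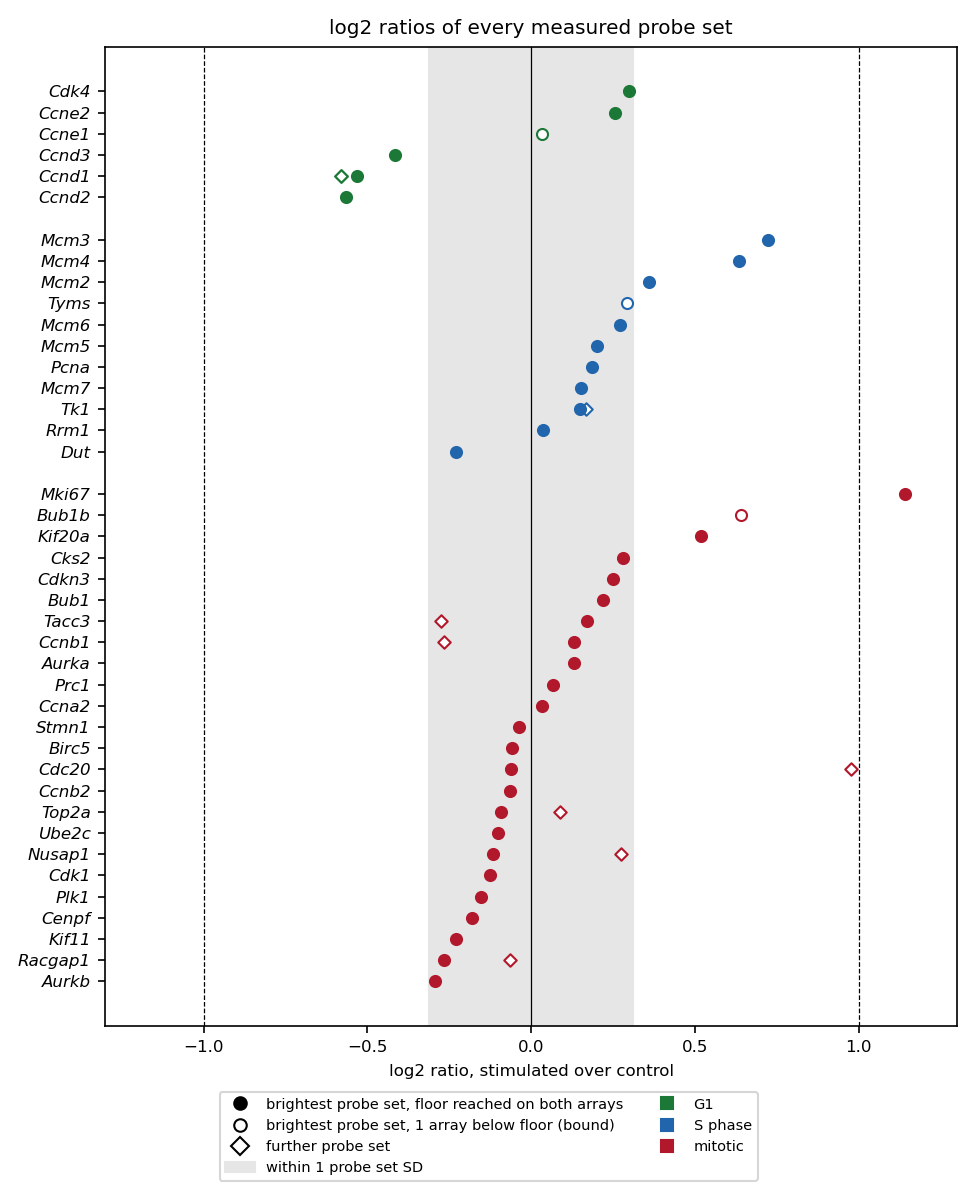
log2 ratios of stimulated over control for every measured probe set of the members; circles are the probe set that stands for the gene (open where 1 array lay below the floor), diamonds are further probe sets, the grey band is 1 probe set SD (0.31) on each side and dashed lines mark 2-fold. The D-type cyclins lie left of the band, Mcm2, Mcm3 and Mcm4 right of it, and Mki67 beyond the 2-fold line.

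Among the 24 measured mitotic genes, 11 lay above 0 and 13 below, where 47.7% of all genes lay below 0, and of the 23 at or above the floor on both arrays 21 were within the probe set SD. When the arrays were scaled to the spike-ins, and ratios were taken as they stood, all 13 lay above 0. Mki67, whose protein coats mitotic chromosomes and is absent from resting cells, had a signal of 82.1 in the stimulated and 37.2 in the control limb, 2.21-fold higher. It ranked 101 of 9956 measured genes and was read by a single probe set. Its fold rests on a control signal just under 2 times the floor. With the floor at the 75th percentile of signals (76.5) its log2 ratio was 0.10, since the control signal was raised to the floor, and with no floor and 16 added to each signal it was 0.88.

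The kinases and cyclins that drive mitosis lay closer to their control level than Mki67. Cdk1, the mitotic kinase, had 102.7 against 112.2, and its partners Ccna2 (cyclin A2) 88.3 against 86.2 and Ccnb2 (cyclin B2) 89.0 against 93.1. Ccnb1 (cyclin B1) had 66.0 against 60.3, and a second probe set went the other way at 38.7 against 46.5. The CDK-binding protein Cks2 had 158.4 against 130.5 and the CDK phosphatase Cdkn3 129.2 against 108.6, log2 ratios of 0.28 and 0.25. All 6 lay within the probe set SD. Plk1 (36.2 against 40.2), Aurkb (37.1 against 45.5), Aurka (24.9 against 22.7) and Birc5 (survivin, 40.6 against 42.3), kinases and a partner that act at centrosomes and centromeres, had log2 ratios from -0.29 to 0.13. Top2a, the topoisomerase that untangles replicated chromosomes, had 77.4 against 82.6, with a second probe set at 55.0 against 51.8.

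The promoters of Mki67, the single member beyond 2-fold, and of Ccnb2, whose signals nearly matched, are set side by side because both carry CCAAT boxes and CHR matches.
Mki67, chr1:199952594-199952843, minus strand: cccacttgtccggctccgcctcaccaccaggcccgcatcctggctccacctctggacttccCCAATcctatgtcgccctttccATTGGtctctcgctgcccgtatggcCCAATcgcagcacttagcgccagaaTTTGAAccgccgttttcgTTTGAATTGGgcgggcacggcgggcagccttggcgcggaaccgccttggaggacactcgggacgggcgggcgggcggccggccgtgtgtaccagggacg
Ccnb2, chr8:79981659-79981908, minus strand: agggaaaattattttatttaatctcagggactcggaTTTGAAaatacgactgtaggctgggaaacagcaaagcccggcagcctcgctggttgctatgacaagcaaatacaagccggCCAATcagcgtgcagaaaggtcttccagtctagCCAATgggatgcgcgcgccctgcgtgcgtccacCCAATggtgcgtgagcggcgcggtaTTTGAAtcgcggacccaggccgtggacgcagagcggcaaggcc
In this window Mki67 held 4 CCAAT boxes and 2 CHR matches, 1 of each overlapping, and Ccnb2 held 3 and 2. Of the 21 mitotic genes in the table, 18 held a CCAAT box and 11 (52.4%) held both a CCAAT box and a CHR match, against 6.32% of all genes in the table. Cdk1 and Stmn1 also held an E2F match. Measured genes with both motifs had log2 ratios from 1.14 for Mki67 to -0.13 for Cdk1, and all but Mki67 lay within the probe set SD. The part of these motifs in the ratios was not tested.

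**Figure D3:**
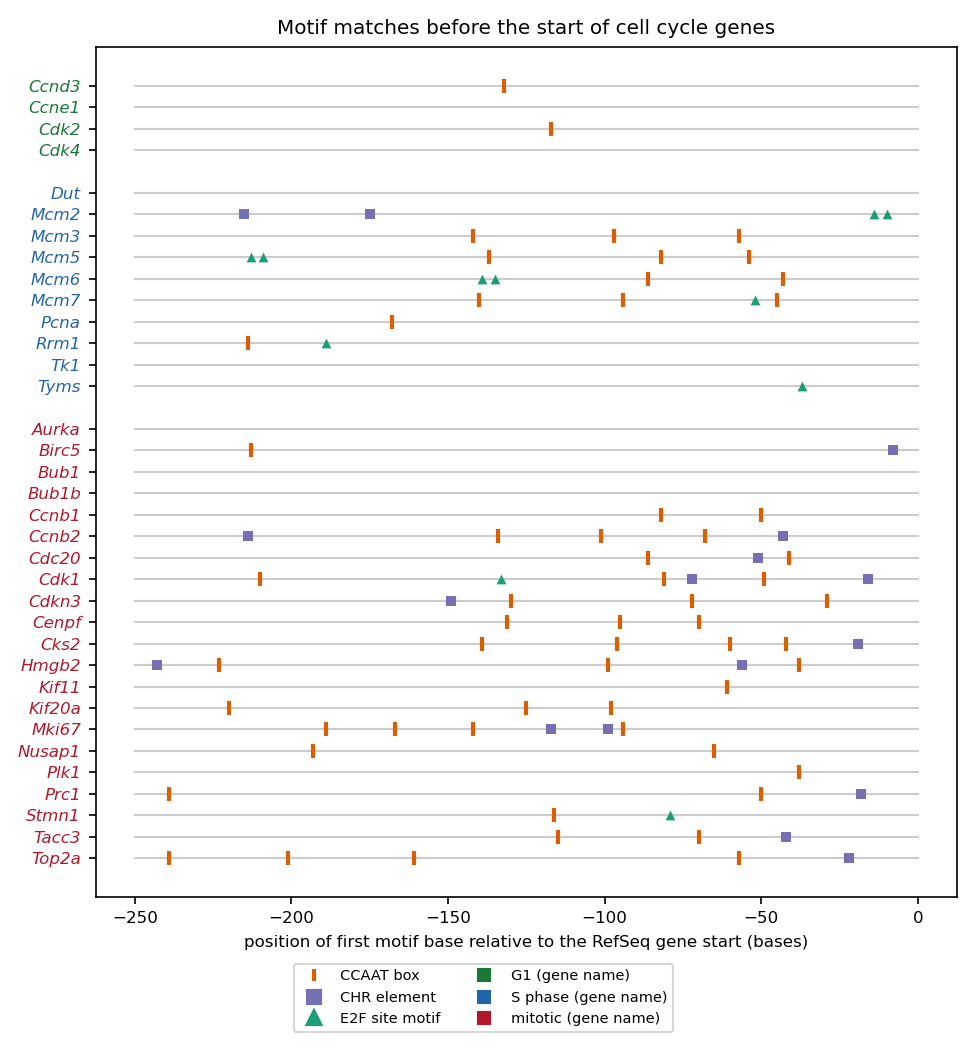
Positions of CCAAT, CHR and E2F motif matches on either strand in the 250 bases before the RefSeq start of the 35 members in the promoter table (x axis, bases before the start at 0; 1 row per gene, coloured by G1, S phase and mitosis; the first listed start where a gene has more than 1). E2F matches lie mostly in S-phase rows, and CHR matches mostly in mitotic rows.

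Spindle and checkpoint genes varied in both directions. Kif20a, a kinesin of cytokinesis, had 45.4 against 31.7, 1.43-fold higher, and Bub1b, a kinase-like protein of the spindle checkpoint, had 30.8 against a control signal of 13.6, at least 1.56-fold higher. Mki67 and Kif20a were the 2 mitotic genes outside the probe set SD with both arrays above the floor. Bub1b was measured through its stimulated signal alone, so it could only come out as higher. Bub1 (54.4 against 46.8), Prc1 (87.4 against 83.4) and Tacc3 (37.2 against 33.1) lay slightly above 0. Racgap1 (66.6 against 80.1), Kif11 (42.4 against 49.8), Cenpf (25.3 against 28.7), Ube2c (80.5 against 86.4) and Nusap1 (67.9 against 73.6) lay slightly below. Stmn1 (stathmin, a microtubule-destabilising protein) had nearly equal signals of 360.0 and 369.4.

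Cdc20, which activates the anaphase-promoting complex, was the member whose probe sets disagreed most. The probe set that stands for it had 58.6 against 61.1, a log2 ratio of -0.06. A second had 57.8 against 29.4, a log2 ratio of 0.98, and the other 3 lay below the floor on both arrays. It is counted among the 13 mitotic genes below 0 by the first of these, and its direction is uncertain. In all, 8 members had a further measured probe set, 9 such probe sets in total. Of these 9, 4 pointed the same way as the probe set that stood for the gene, and only for Ccnd1, Tk1 and Racgap1 did all probe sets do so. Probe sets of Top2a, Ccnb1, Nusap1, Tacc3 and Cdc20 pointed both ways.

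Other genes of the cycle were followed through 6 further lists. CDK inhibitors, which hold cells in G1, had 5 measured genes with a median log2 ratio of 0.20, 3 above 0 and 2 below. Cdkn1a (p21) had 439.1 against 272.6, 1.61-fold higher, but a further probe set gave -0.01 on the log2 scale. Cdkn1c (p57) had 167.6 against 113.8, 1.47-fold higher, and Cdkn1b (p27) 563.7 against 492.2, 1.15-fold higher. Cdkn2c (48.9 against 51.1) differed little, and Cdkn2a and Cdkn2b lay below the floor. No gene in the lists of CDK inhibitors, RB and E2F factors, other cyclins and kinases, replication factors or other mitotic genes reached 2-fold. This refers, in both directions, to the probe set that stands for each gene. For genes with 1 array below the floor, among them Kif2c, Gins3 and Pole2, the fold is only a lower bound. Top1, a replication factor, had a log2 ratio of 0.16 with a further probe set at -1.0. Ccnc, a cyclin, had -0.24 with a further probe set at 0.92.

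RB and E2F family genes had a median of 0.02, equal to that of the median gene when rounded. Of 14 measured, 8 lay above 0, where 52.3% of all genes did. Rb1 (the retinoblastoma protein) had 61.9 against 78.4, 1.27-fold lower, its relative Rbl1 (p107) 40.6 against 25.1, 1.62-fold higher, and E2f1 37.6 against 30.0, 1.25-fold higher. Lin37 and Lin54, subunits of the DREAM complex that represses cell cycle genes in resting cells, had log2 ratios of 0.70 and 0.33. Foxm1 and Mybl2, activators of mitotic genes, lay below the floor on both arrays. Among other cyclins and kinases, 10 of 17 lay above 0, beside the same 52.3% of all genes. Wee1, which inhibits Cdk1, was 1.65-fold lower (61.8 against 101.9), and its other probe set had a log2 ratio of -0.25. Ccni, an atypical cyclin, was 1.37-fold higher with a second probe set at -0.26, Ccnk, a cyclin of transcription, 1.34-fold lower, and Cks1b, a relative of Cks2, had 123.5 against 160.6 and a log2 ratio of -0.12 at its other probe set. Ccng1 (cyclin G1), a p53 target, had 4960 against 5210.

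Genes of origins and forks other than the MCM subunits went both ways. Of 31 measured, 14 lay above 0 and 17 below, with a median of -0.10, which lay between -0.07 and 0.28 under the 7 alternatives and below 0 in 2 of them. Gins3, Pole and Pole2 were measured through the control signal alone and could only lie below 0. The polymerase subunit Pole2 was at least 1.86-fold lower (control signal 36.9), Pold3 1.75-fold lower with a second probe set at 0.27, and Cdc45, which joins the MCM ring in the active helicase, had 49.1 against 73.4, a log2 ratio of -0.58, with a second probe set at -0.12. Rfc5, a subunit of the clamp loader, was 1.52-fold higher. Of 30 other mitotic genes, 20 lay above 0, against 52.3% of all genes, with a median of 0.10. Ttk, Kif2c and Depdc1 were measured through the stimulated signal alone and could only lie above 0. Melk was measured through the control signal alone and could only lie below. Spc25 (71.4 against 38.9, 1.83-fold higher) and Spc24 (85.3 against 47.5, 1.80-fold higher), partners in the Ndc80 complex of the kinetochore, had the highest ratios, followed by Ect2 (1.55-fold) and Incenp (1.51-fold). In the list of growth signal targets 2 of 13 genes were at least 2-fold lower, against 1.43% of all measured genes. They were Egr1 (67.9 against 210.8) and Fos (41.8 against 111.6), while Myc had 27.9 against 35.3. Odc1, a polyamine enzyme and Myc target, was 1.33-fold higher, and Mxd1, a Myc antagonist, at least 1.29-fold lower. As they stood after spike-in scaling, the medians of all 6 lists lay above 0, from 0.28 for origins and forks to 0.58 for CDK inhibitors.

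Cell markers differed in both directions. Of 21 measured monocyte and macrophage markers 20 were higher, with a median log2 ratio of 0.68, 7 at least 2-fold higher, and a summed signal of 18080 in the stimulated and 7252 in the control limb. Without Spp1 and Gpnmb, the genes of highest ratio in that list, the sums were 12060 and 7052. Cx3cr1 lay below the floor on both arrays. Spp1 was measured through its stimulated signal alone and could only be higher. Ccr2, the marker that was lower, was measured through its control signal alone and could only be lower. Satellite cell and myoblast markers had a median of 0.01 over 7 measured genes, just below the median gene, with 4 above 0 and 3 below. Myod1 had 363.2 against 361.4, Myog, of highest ratio, 332.4 against 166.8, and Cdh15, of lowest ratio, 49.6 against 72.6. The summed signal of the 7 was 8428 against 9274, most of it from Des (desmin), which muscle fibres also express. Without Des the other 6 summed to 1112 against 914.2, and most of that difference came from Myog. Myh3 and Myh8 lay below the floor, and Pax7 and Myf5 were not analysed here. Of 11 lymphocyte markers with a probe set 7 lay below the floor on both arrays, among them Cd3e, Cd3d and Ms4a1, and the 4 measured summed to 172.3 against 134.6. That sum was carried by Cd8a (74.3 against a control signal of 13.7, at least 3.75-fold higher), and without it the other 3 summed to 98.0 against 120.9. Of 7 neutrophil markers 5 lay below it, and the other 2 summed to 70.9 against 60.0. The part of any of these cells in the ratios of Mki67 and the MCM genes was not tested.

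**Figure D4:**
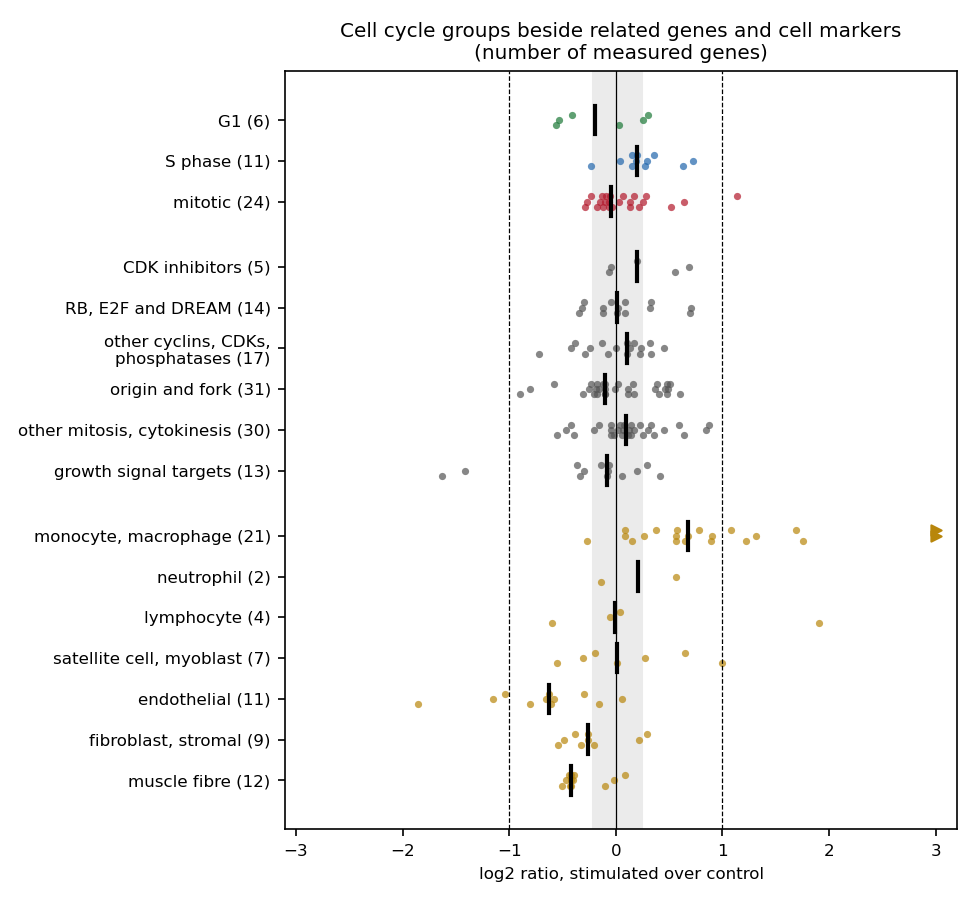
log2 ratios of stimulated over control for measured genes of the 3 cell cycle groups (coloured), 6 lists of related genes (grey) and 7 lists of cell markers (ochre); each point is 1 gene, bars are medians, arrowheads are genes above 3, the grey band holds the middle 50% of all genes and dashed lines mark 2-fold. The cell cycle groups cluster around 0, between the macrophage markers (median 0.68) and the endothelial markers (median -0.63).

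The direction of the main groups was compared across 7 other ways of processing the signals. The median of the D-type cyclins lay between -0.57 and -0.15, that of the MCM genes between 0.15 and 0.70, and Mki67 between 0.10 and 1.53. The MCM value of 0.15 came from the floor at the 75th percentile, where only Mcm2 and Mcm7 were still measured. Mcm6 dropped out when probe sets with suffixes were left out. The mitotic median lay below 0 in 6 of the 7 and was 0.34 under spike-in scaling, where relative to the median gene it was -0.05.

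**Figure D5:**
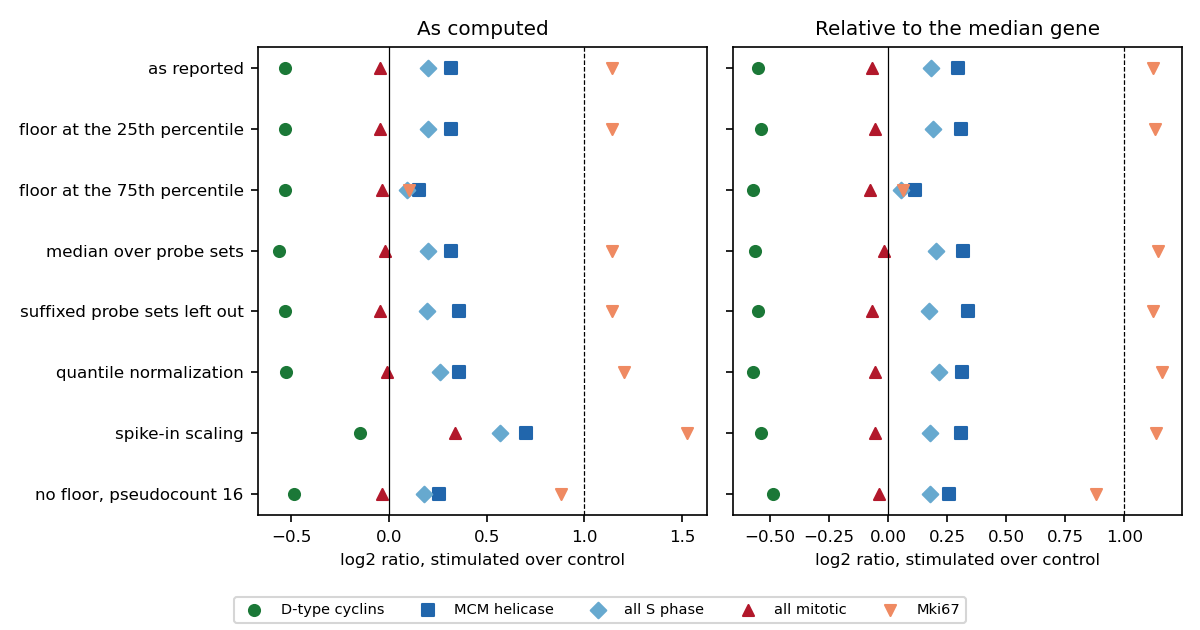
log2 ratios of stimulated over control for the medians of the D-type cyclins, MCM genes, S-phase and mitotic groups and for Mki67 under 8 ways of processing, as computed (left) and relative to the median gene (right). The D-type cyclins stay left of 0 and the MCM genes right of it in both panels, and Mki67 is at 0.10 with the floor at the 75th percentile.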

How the data were processed

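Total RNA of each limb was hybridised to 1 Affymetrix GeneChip. The deposited table holds linear signal intensity per probe set from the authors' MAS5 run, a tool named in the submitters' processing notes. Its version and target value are not given in the sources read for this work. MAS5 scales each array by 1 factor, and the trimmed mean signal was 76.5 on both. Of 31099 probe sets, 57 controls were left out; of the other 31042, 20826 had 1 gene symbol in the platform annotation, 436 had several and 9780 had none listed. The floor was the 50th percentile of non-control signals. The 3'-to-5' signal ratio of beta-actin was 2.43 on the stimulated and 2.26 on the control array. The number of arrays limits the precision.

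The members and lists were chosen with earlier results of these data known, and role groups within them, and the promoters shown, after values were seen. Named were all members, the 4 genes of largest ratio in each related list, and Cdkn1a, Cdkn1b, Cdkn1c, Rb1, E2f1, Foxm1, Myc and Ccng1. Other genes named were chosen after their values were seen. Promoters came from RefSeq (GRCr8) for 35 of 45 members. Python 3.11.15 with pandas 2.3.3 was used, and the counting was tested on simulated data. The 7 alternatives were floors at the 25th and 75th percentile, the median over probe sets, leaving out probe sets with suffixes (_s_at, _x_at, _a_at), quantile normalization, spike-in scaling, and no floor with a pseudocount of 16.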

Additional observations from a re-analysis of the deposited data

How the results depend on the processing

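The members' ratios and counts and the medians of their groups and of the other lists were recomputed under 7 alternatives, where the gene was still measured (5 to 7 of them for each member). Single genes of the other lists, summed signals and motif counts were not; 3 summed signals without the genes that carry them were added after seeing the data. The number of members at least 2-fold higher was 1 as reported, 3 with the floor at the 25th percentile (Mki67, Tyms and Bub1b), 3 under spike-in scaling (Mki67, Mcm3 and Mcm4), 0 at a floor of the 75th percentile, and 0 with no floor and a pseudocount of 16. No member was at least 2-fold lower under any of the 7. With the floor at the 75th percentile 21 members were measured. Under spike-in scaling the S-phase median was 0.57 and the mitotic median 0.34; relative to the median gene, at 0.39, they were 0.18 and -0.05. The G1 median ranged from -0.47 to 0.10 and changed sign. Of the members' own ratios, 38 of 41 moved by more than the probe set SD of 0.31 under spike-in scaling, and at most 3 under any other alternative. Spike-in scaling multiplies all signals of the stimulated array by the same factor and leaves the control array as it was. No paired analysis was possible because each group has 1 array. Low signal limits the 8 members near background.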
